A study of Homo sapiens with 9 samples.

Results

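BNC2 encodes basonuclin 2, a zinc finger protein that binds DNA. The gene was followed here at the level of replicating DNA, over 461 kb of chromosome 9 (16.41 to 16.871 Mb, hg19), within a domain that runs from 15000001 to 18500000. It is 1 gene, covered by 24 windows of 20 kb, out of 134249 such windows kept on the 22 autosomes, and its domain holds 175 of them. BNC2 was selected on the difference between the lines in these same read shares. The gene-level shares are therefore a description, with no test.

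The libraries came from 2 human cell lines grown in the same medium, neither of which was given a drug or a genetic change for the experiment, as far as the labels say. RPE1 is a telomerase-immortalised line of retinal pigment epithelium, and HCT116 is a line from a colorectal carcinoma. Cells received a pulse of EdU, a thymidine analogue taken up by DNA under synthesis, and were sorted into early, mid and late S phase before the marked DNA was captured and read. RPE1 has 2 sets of 3 libraries and HCT116 has 1 set, 9 libraries in all. The title of the HCT116 early S library lacks the replicate number that the mid and late titles carry. All 3 name the same table and were treated as 1 set. RPE1 was done in duplicate, but the labels do not tell if each duplicate was a culture of its own, so the spread between sets may be technical. The tables hold DNA reads only, and the identity of the lines could not be checked against marker genes.

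The count columns carry no names, and the labels do not tie a column to a fraction of S phase. They are named here by their place from left to right, as libraries A, B and C. A letter stands for a place in the table and not for early, mid or late S, so the word "later" is not used of BNC2. What can be said is which library took its reads in each line. Setting the lines side by side assumes that a letter holds the same fraction in all 3 tables, which no label states. Over 53706 autosomal windows of 50 kb, the A share of HCT116 correlated with that of RPE1 sets 1 and 2 at Pearson's r of 0.838 and 0.833, the B share at 0.435 and 0.469, and the C share at 0.764 and 0.766. Each HCT116 letter had its highest r with the same letter of either RPE1 set. Neighbouring windows are not independent and the shares of a set sum to a whole, so these values are a description.

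Mammalian chromosomes are copied in a set order during S phase. Long stretches fire their origins at about the same time, and between an early and a late stretch lies a transition that long-running forks cross. Early replication usually goes with open, transcribed chromatin and late replication with chromatin at the nuclear lamina, and domains of this kind differ between cell types. BNC2 is known from mesenchymal cells and keratinocytes, and from the genetics of skin pigmentation. Its expression was not measured in these data.

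The gene lies on the minus strand in the RefSeq table of GRCh38.p14, so its 5' end is at the higher coordinate. In that assembly its nearest protein-coding neighbours are CCDC171, a coiled-coil protein gene, beyond its 3' end and CNTLN, a gene for a centrosomal protein, beyond its 5' end. SH3GL2, which encodes an endophilin of synaptic vesicle recycling, and ADAMTSL1, a gene for a secreted matrix protein, follow on the CNTLN side. PSIP1, which encodes a chromatin-bound protein, and SNAPC3, a subunit gene of the complex that binds the promoters of small nuclear RNA genes, lie beyond CCDC171. No gene coordinates of hg19 were used beyond the bounds of BNC2, so read values are given by position, not by neighbouring gene or by exon.

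The promoter is shown because it lies in the segment of the gene that was lowest in HCT116. It is the RefSeq sequence of GRCh38.p14, chr9:16870621-16870920, minus strand, with 250 bases before the start and 50 after it, and capitals mark each CG.

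BNC2 promoter: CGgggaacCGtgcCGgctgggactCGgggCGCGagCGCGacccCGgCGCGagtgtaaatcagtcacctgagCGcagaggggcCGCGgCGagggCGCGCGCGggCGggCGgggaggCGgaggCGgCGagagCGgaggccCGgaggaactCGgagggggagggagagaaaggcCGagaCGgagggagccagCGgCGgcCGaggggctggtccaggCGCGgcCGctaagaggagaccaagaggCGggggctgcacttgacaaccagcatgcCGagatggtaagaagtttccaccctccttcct

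It holds 37 CG in 300 bases and 72.3% G and C, against medians of 14 and 58.7% over 35116 promoters of the same length, of which 11.3% hold at least as many CG. GGGCGG, searched on both strands, occurs 2 times, and 45.0% of promoters hold it. TATAAA and CACGTG, searched likewise, have 0 matches here and are held by 11.5 and 7.26% of promoters. These are counts of letters in this window.

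The libraries held 6170299 to 22930078 reads. Each was scaled to an equal total over the autosomes within its set, and the share of a library in a window is its part of the 3 scaled values. The index is the share of library C minus that of library A, in percentage points. It can run from -100 to 100, and a higher value means more of the scaled reads in C. Over 53706 autosomal windows of 50 kb its SD was 43.8 points for RPE1 set 1, 34.9 for RPE1 set 2 and 31.9 for HCT116, so the sets spread differently. The index of the RPE1 sets differed with an SD of 10.7, and 0.121% of windows were apart by 30 points or more.

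BNC2 was taken up mainly by libraries A and B in RPE1 and mainly by library C in HCT116. In RPE1 set 1, A held 48.2% of scaled reads, B 46.6% and C 5.197%. In RPE1 set 2, A held 44.8%, B 38.9% and C 16.3%. In HCT116, A held 17.4% (95% interval 16.2 to 18.48%), B 28.5% (27.2 to 29.7%) and C 54.2% (52.7 to 55.7%). Library C thus went from the smallest part of the gene's reads in both RPE1 sets to the largest in HCT116.

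**Figure D1:**
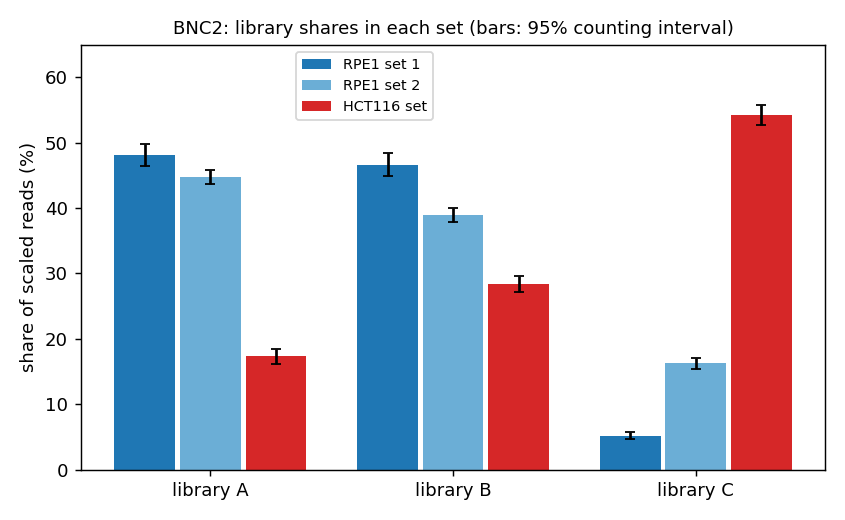
Share of scaled reads (%) over BNC2 in libraries A, B and C, 1 bar for each set, with 95% counting intervals. The A and B bars of both RPE1 sets stand above those of HCT116, and the C bar of HCT116, at 54.2%, stands above those of RPE1, at 5.197 and 16.3%.

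The reads behind these shares numbered 4094 for RPE1 set 1, 8839 for RPE1 set 2 and 4374 for HCT116. The intervals come from the delta method on Poisson counts. They cover counting error within a set only, and not variation between cultures, sorts or captures. Any PCR copies left in the counts are not independent molecules. All 461 bins of 1 kb in the gene held a read in every set, so no part of it lacked coverage.

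The RPE1 mean of the C share was 10.7% ± 7.84 (SD, n = 2), and HCT116 had 5.05 times that mean. The A share was 46.5% ± 2.38 (SD, n = 2) in RPE1, 2.68 times that of HCT116. The B share was 42.8% ± 5.46 (SD, n = 2), against 28.5%. The gap between the RPE1 sets was 3.37 points for A, 7.72 for B and 11.1 for C. The differences between the lines were larger, which describes the choice of a gene selected on them.

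RPE1 set 1 had a BNC2 index of -42.96 (95% interval -44.7 to -41.2) and RPE1 set 2 one of -28.50 (-30.1 to -27.0). HCT116 had 36.8 (34.5 to 39.2). HCT116 lay 72.6 points above the RPE1 mean of -35.7 ± 10.2 (SD, n = 2). The RPE1 sets, 14.5 points apart, were closer on a scale of distance from the autosomal mean in units of each set's own SD. There BNC2 stood at -0.93 for RPE1 set 1, -0.85 for RPE1 set 2 and 1.19 for HCT116, a difference of 2.08 SD between the lines. Set among single autosomal windows of 50 kb, the pooled value of the gene was not at an extreme in either line. The share of those windows with a lower index was 25.9% for RPE1 set 1, 27.7% for RPE1 set 2 and 80.3% for HCT116. The gene value is pooled over a longer stretch than a window, so these ranks compare unlike units.

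The switch covered the whole gene. Over its 24 windows of 20 kb the index of RPE1 set 1 ran from -64.4 to -26.6 with a median of -42.6. RPE1 set 2 ran from -62.4 to -8.57 with a median of -26.5. HCT116 ran from 17.4 to 48.2 with a median of 40.4. The ranges of the lines did not overlap, and every HCT116 window was above every RPE1 window. The windows are neighbours in a gene chosen on this difference, so this describes the choice. How many autosomal stretches of this length are parted likewise was not counted.

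Library C led all 24 windows in HCT116 and 0 in either RPE1 set. In RPE1 set 1, A led 11 windows and B 13, and in RPE1 set 2, A led 14 and B 10. By the gene shares given above, the RPE1 reads lay mainly in A and B and those of HCT116 mainly in C. All 24 windows, and all 10 windows of 50 kb that touch the gene, had HCT116 at least 30 points above both RPE1 sets. Over the autosomes 4.34% of 20 kb windows and 3.94% of 50 kb windows did so (50 kb: 9.08% against RPE1 set 1 alone). In 8.03% of 50 kb windows HCT116 was at least 30 points below both. How often each library led over the autosomes was not counted. The gene was chosen on this contrast, so nothing is read from any of these counts.

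**Figure D2:**
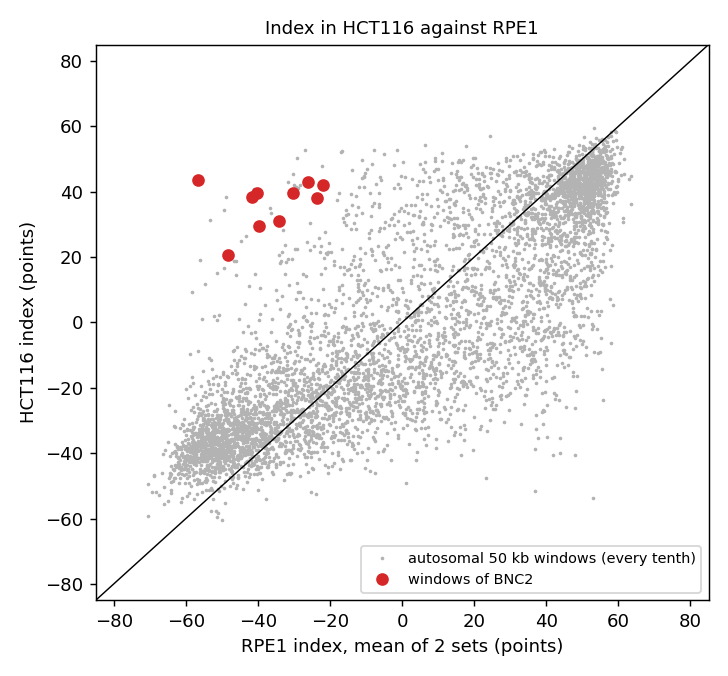
Index of HCT116 (points) against the mean index of the RPE1 sets (points), for a thinned sample of autosomal 50 kb windows in grey and the 10 windows of BNC2 in red. The line marks equal values, and the BNC2 windows lie above it, with HCT116 from 20.5 to 43.6 and RPE1 from -56.7 to -21.8.

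The profile within the gene was not flat. Cut into 5 segments of 92 or 93 kb from the 5' end, RPE1 set 1 had index values of -46.1, -37.3, -30.2, -43.1 and -52.8. RPE1 set 2 had -33.8, -20.3, -14.4, -27.9 and -40.7. In both sets the middle segment was highest and the 3' segment lowest, and the middle stood above both ends beyond its counting interval (-34.3 to -26.1 for set 1, -17.9 to -10.9 for set 2). Its interval met that of segment 2 in both.

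The middle of the gene differed from its ends in RPE1 through a lower A share and a higher B share. In segment 3, B held 54.9 and 49.8% of scaled reads in the RPE1 sets and A held 37.6 and 32.3%. In the segment at the 3' end, A held 58.6 and 56.8% and B held 35.6 and 27.0%. At the 5' end A held 49.8% in both sets and B held 46.5 and 34.3%. Library C moved by less along the gene, between 3.74 and 7.44% for RPE1 set 1 and between 15.2 and 17.9% for RPE1 set 2.

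HCT116 had 28.5, 36.4, 42.7, 38.5 and 39.9 in the same order. Its segment at the 5' end, which holds the promoter, was lowest, with an interval of 23.2 to 33.8. That interval lay apart from those of segment 3 (37.2 to 48.1) and segment 5 (34.7 to 45.2), and met those of segments 2 and 4. The remaining segments were not distinguishable from each other at this depth of 757 to 851 reads a segment.

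**Figure D3:**
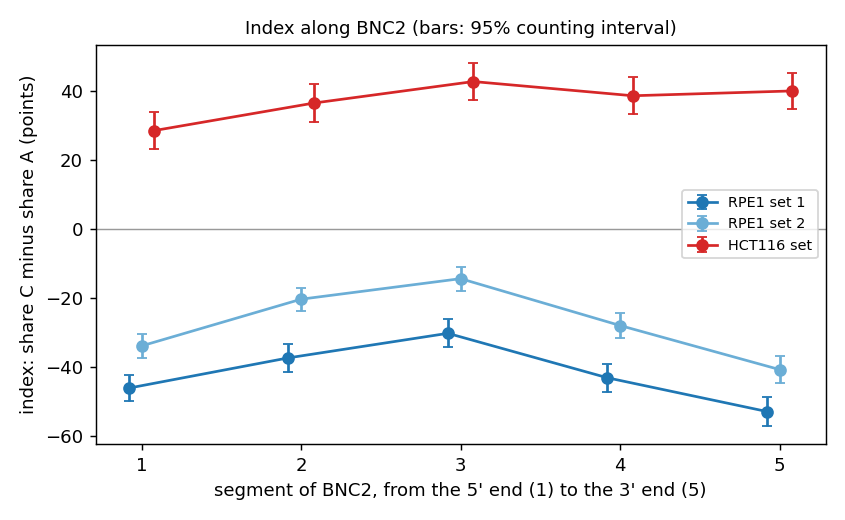
Index (share C minus share A, points) in 5 segments of BNC2 from the 5' end to the 3' end, for each set, with 95% counting intervals. RPE1 forms an arch that peaks in segment 3, at -30.2 and -14.4, and HCT116 rises from 28.5 at the 5' end to between 36.4 and 42.7 in the others.

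The difference between the lines was therefore unequal along the gene. HCT116 exceeded the RPE1 mean by 68.4, 65.3, 64.95, 74.1 and 86.7 points from the 5' to the 3' segment. The RPE1 SD of a segment ran from 8.58 to 12.0 (n = 2). The difference was largest at the 3' segment against either RPE1 set alone, while those of the first 3 segments lay closer together than that SD.

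Seen over the whole domain, as a running mean over 100 kb, the low point of both RPE1 profiles lay outside BNC2, on its 3' side. It was -65.4 at 16280001 to 16300000 in RPE1 set 1 and -59.1 at 16300001 to 16320000 in RPE1 set 2. A second low lay at the 5' end of the gene, with -53.3 at 16900001 to 16920000 in set 1 and -40.7 at 16860001 to 16880000 in set 2. The lows were 620 and 560 kb apart, and BNC2 filled most of the space between them.

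Between these lows the RPE1 index rose to a crest inside the gene, of -30.8 at 16660001 to 16680000 in set 1 and -14.7 at 16640001 to 16660000 in set 2. The crest stood 34.6 and 44.4 points above the low on the 3' side, and 22.5 and 26.0 points above the low on the 5' side. The highest smoothed HCT116 value within the gene was 42.5, at 16620001 to 16640000. It stood little above others along the gene, such as 41.1 at 16440001 to 16460000. Without smoothing the highest HCT116 window was at 16720001 to 16740000, with 48.2, so no crest is placed for HCT116. The RPE1 crests fell in adjacent windows, of a mean taken over 100 kb.

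**Figure D4:**
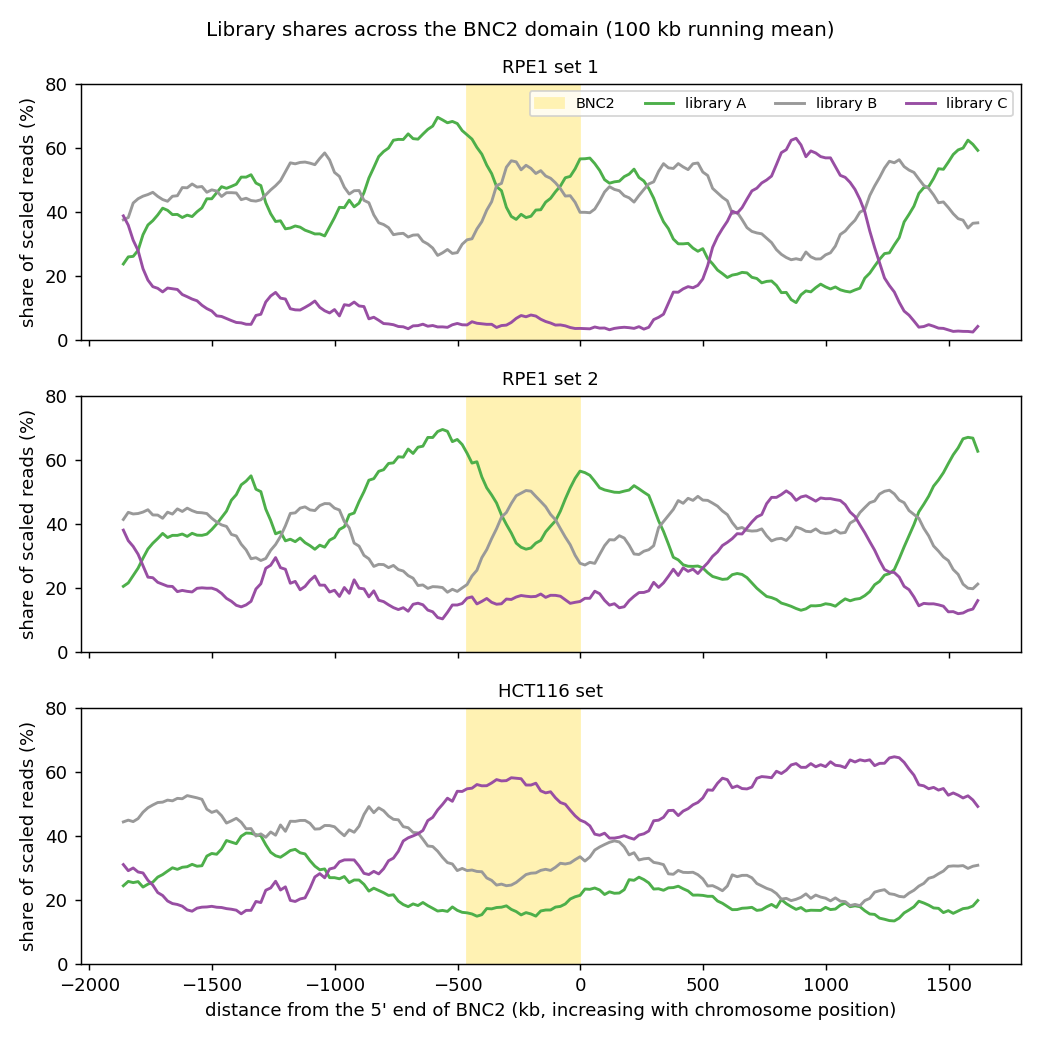
Shares of scaled reads (%) of libraries A, B and C across the domain, as a running mean over 100 kb, against distance from the 5' end of BNC2 (kb), with the gene shaded. In both RPE1 panels A peaks on each side of the gene and B between them, while in the HCT116 panel C leads over the gene and onward to the end of the domain.

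The HCT116 index was above 0 at both RPE1 lows. Its lowest value in the domain was -24.2, at 15480001 to 15500000. From there it climbed by 66.7 points over 1140 kb to its highest point in the gene, or 5.85 points per 100 kb. RPE1 had a low in the same neighbourhood, with -46.7 and -39.2 at 15520001 to 15540000. This A-leaning stretch was present in both lines, and the profiles parted on its BNC2 side.

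Beyond the 5' end of BNC2 the HCT116 index fell to 12.8 at 17080001 to 17100000. A flank as long as the gene on that side had an index of 19.3 in HCT116, against 37.0 over the gene bounds and 20.2 over the flank on the 3' side. The 95% intervals of the flanks, 16.8 to 21.8 and 17.7 to 22.8, lay apart from the 34.6 to 39.4 of the gene. BNC2 taken whole was thus more C-led in HCT116 than flanks of its length, but the change did not follow its bounds. As a running mean the HCT116 index was 37.7 just beyond the 3' end and 23.5 at the 5' end.

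RPE1 had another order. The flank on the 3' side had -55.5 in RPE1 set 1 and -45.1 in RPE1 set 2, below the gene bounds at -42.2 and -27.5. The flank on the 5' side had -39.7 and -25.7, with counting intervals that met those of the gene in both sets.

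The edges of the switched domain were placed where HCT116 minus the RPE1 mean, smoothed over 100 kb, fell to 50% of its largest value. That value was 95.5 points, centred on 16330000, in the 3' flank rather than in the gene. The domain so defined began at 16036917, 373 kb beyond the 3' end of BNC2, and ended at 17194048, 323 kb beyond its 5' end. It was 1157 kb long and held the whole gene.

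The end edge depended more on the RPE1 set than the start edge. With RPE1 set 1 alone the domain ran from 16014586 to 17218697 and with RPE1 set 2 alone from 16054365 to 17103774. The length depended on the rule for an edge. It was 475 kb at 70% of the largest difference, where the end fell inside the gene at 16599141, and 578 kb without smoothing, where the end fell at 16688251. HCT116 lay above both RPE1 sets over a longer stretch of 1920 kb, from 15760001 to 17680000.

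**Figure D5:**
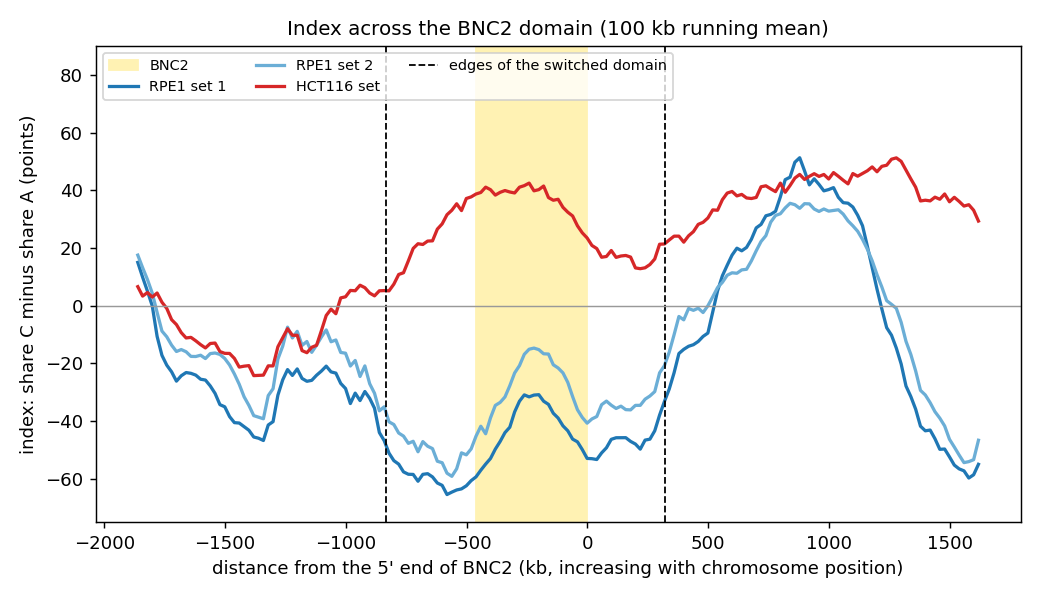
Index (share C minus share A, points), as a running mean over 100 kb, against distance from the 5' end of BNC2 (kb) for the 3 sets, with the gene shaded and dashed lines at the edges of the switched domain. The RPE1 curves dip on both sides of the gene and HCT116 stays at or above 12.8 from the gene to the end of the domain.

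At the start edge the lines moved in opposite directions. Over 200 kb either side, the slope of the RPE1 index was -9.73 points per 100 kb in set 1 (SE 2.00) and -9.15 in set 2 (SE 2.19). That of HCT116 was 5.63 points per 100 kb (SE 1.30). RPE1 was steeper close to the edge, and within 100 kb either side its mean slope was -18.7 points per 100 kb in place of -9.44.

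At the end edge the lines moved the same way at different rates. The RPE1 index rose by 13.5 points per 100 kb in set 1 (SE 1.63) and by 12.7 in set 2 (SE 1.56), and that of HCT116 rose by 3.98 (SE 1.37). Within 100 kb either side the RPE1 mean was 24.0 points per 100 kb, in place of 13.1. The HCT116 slope minus the RPE1 mean was 15.1 points per 100 kb at the start edge and -9.12 at the end edge. The signs of these differences follow from the edge rule, which places an edge where HCT116 minus RPE1 falls. The RPE1 SDs of the slopes were 0.415 and 0.606 (n = 2), below the SEs of the RPE1 fits. The SEs are of straight lines through 20 windows of 1 set, which are neighbours and not replicates.

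Past the end edge RPE1 went on rising toward the level of HCT116. From the low at the 5' end of BNC2 it gained 105 points over 840 kb in set 1 and 76.2 points over 840 kb in set 2. From 17500001 to 18000000 the index was 36.2 for RPE1 set 1, 28.4 for RPE1 set 2 and 41.7 for HCT116. Library C led there in both lines, with 53.1, 45.6 and 59.6% of scaled reads in the same order. Next to the edge the lines still differed. From 17000001 to 17500000, B led with 49.3% for RPE1 set 1 and 40.8% for RPE1 set 2, and C led with 47.8% for HCT116. On the 3' side, beyond the edge, HCT116 lay nearer to RPE1 set 2 than the RPE1 sets lay to each other. From 15500001 to 16000000 the index was -29.9 for RPE1 set 1, -18.4 for RPE1 set 2 and -8.09 for HCT116, and from 15000001 to 15500000 it was -24.8, -14.6 and -10.2 in the same order.

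Another switch of the same direction began before the end of the domain. HCT116 was at least 30 points above both RPE1 sets in an unbroken run of 50 kb windows from 18050001 to 18700000, 650 kb in length. From 18000001 to 18500000, C held 58.3% of the HCT116 reads after scaling, against 12.0% for RPE1 set 1 and 20.5% for RPE1 set 2. In HCT116 the C-led stretch thus ran on from BNC2 across the switch and the shared stretch, where RPE1 alternated.

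The run of such windows that holds BNC2 reached from 16000001 to 17250000. It was 1250 kb long, with a mean difference of 68.3 points. Its first window had HCT116 47.6 points above the nearer RPE1 set and the window before it 29.8 points. Its last window had 39.97 points and the window after it 16.6. Of 596 runs with HCT116 above, with a median length of 100 kb, 1 was longer and 1 was as long, both on chromosome 8, with mean differences of 56.8 and 47.9 points.

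Autosomes, without the domain around BNC2, were also cut into 5833 blocks of the length of the gene. The difference between the lines was at least as large as over the gene bounds, 71.8 points, in 3 of them. BNC2 was chosen for its difference, so neither this count nor the rank of its run measures how rare it is. The blocks most like BNC2 in their 9 library shares, by Euclidean distance, lay on chromosome 3 from 64079001 to 64540000 (distance 9.93), chromosome 1 from 240181001 to 240642000 (10.9) and chromosome 5 from 169187001 to 169648000 (11.1). A further pair was on chromosome 5, from 146598001 to 147059000 (11.8) and from 110179001 to 110640000 (12.9). The median distance was 62.0. Library C held 44.8 to 59.6% of HCT116 reads over these 5 blocks, 4.70 to 7.53% for RPE1 set 1 and 16.1 to 18.8% for RPE1 set 2. They were picked for being like BNC2, so these ranges describe the choice.

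Read depth over BNC2, with libraries weighted equally and set against the autosomal mean, was 0.785 for RPE1 set 1, 0.915 for RPE1 set 2 and 1.01 for HCT116. HCT116 lay 0.162 above the RPE1 mean, and the RPE1 sets were 0.130 apart. Shares are taken within a set, and the part of copy number or of uneven capture in the shares was not tested.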

How the data were processed

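Each of the 3 deposited tables gives raw read counts in 3137207 bins of about 1 kb on hg19, in 3 unnamed columns. The tools listed in the submitters' processing notes are Bowtie2, SAMtools 1.2 and bedtools 2.25, with no role stated. The table names the labels give carry a tag for removed duplicates. Mapping settings are not given in the sources used here.

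Bins were summed to windows of 20 and 50 kb. A window was kept with reads in at least 50% of its bins and at least 12 (20 kb) or 30 (50 kb) reads in each set. Libraries were scaled to equal totals over kept autosomal windows. Index, running mean (5 windows), edges and least-squares slopes were computed in Python 3.11.15 with NumPy 2.4.6 and pandas 2.3.3, and were tested on simulated data. With 1 HCT116 set no p-value was computed.

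Reads that map to several places, PCR copies and copy number can change counts, and shares within a set are less exposed to copy number. Other window sizes, scalings, edge levels, smoothing and left-out sets were tried. The gene, the domain and these measures were chosen with earlier results of these data known. Named are BNC2, and the 5 autosomal blocks of its length, outside its domain, most like it in the 9 library shares, since no hg19 gene table was used.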

Additional observations from a re-analysis of the deposited data

How the results depend on the processing

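Of 82 alternative values for the gene, the domain, its slopes and the share of windows, 64 stayed within a set limit, 18 moved and 0 reversed. The limit was the 95% interval of the straight-line fit for the HCT116 slopes, and 1.5 times for the share of windows. For the other values it was the RPE1 spread or the counting interval. The index difference was 115 points with library B left out, which raises shares by construction, and 65.3 to 79.8 with a single RPE1 set. The domain start was 16109838 without smoothing, 15878492 at an edge level of 30% and 16123963 at 70%. The end was 16688251, 17405246 and 16599141 in the same order, and the length 578, 1527 and 475 kb. With a single RPE1 set the start lay from 16014586 to 16054365, the end from 17103774 to 17218697 and the length from 1049 to 1204 kb. The RPE1 slope at the start edge was -18.7 points per 100 kb over 100 kb either side and -10.1 with 50 kb windows, and at the end edge 24.0 over 100 kb and 11.4 over 300 kb. With a single RPE1 set these slopes ran from -9.73 to -9.15 and from 12.7 to 13.5. For these slopes and the index, a single RPE1 set must lie within the SD of the 2. Those values are among the 64 by construction. The share of windows with HCT116 above both RPE1 sets was 8.22% at 20 points and 1.92% at 40 points, as a lower or higher threshold must give, and 4.29 to 9.08% with a single RPE1 set, the higher value against RPE1 set 1 alone. Apart from library B and the thresholds, the cause was not tested. The alternatives with gene bounds and with SD or log2 units were chosen after seeing the data. In log2 of C over A the difference was 3.98, from -2.34 ± 1.24 (SD, n = 2) in RPE1 to 1.64. No paired analysis was possible because HCT116 has 1 set. In 20 kb windows the RPE1 set 1 reads, 123 to 237 over BNC2, limit the finest detail.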
